A study of Mus musculus with 40 samples.

Results

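Heads of Aey69 mutant embryos and of control embryos at embryonic stage E11.5 were compared on expression arrays. The comparison held 8 of the 40 samples of the series, 4 of each genotype, chosen by the labelled genotype, tissue and age. Aey69 is a small-eye line from a chemical mutagenesis screen on the C3HeB/FeJ background, the strain labelled for both genotypes. The study's text calls the controls wild-type littermates of the mutants, and whether the mutants on these arrays carried 1 or 2 copies of the mutation is not given in the sources used here. The line carried a mutation in the histone H3 gene Hist2h3c1 (now H3c14) on chromosome 3. The animals received no treatment, and whether a sample was 1 embryo or a pool is not given in the sources used here. Libraries are named by the numbers 2 to 5 of their columns in the deposited table, and these differ from the replicate numbers in the titles. Heads at E10.5, 4 of each genotype, served as the neighbouring stage.

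Core histones package DNA as octamers of H2A, H2B, H3 and H4, and H1 binds the linker between them. Most of their genes lie in clusters and are replication-dependent: they are transcribed mainly in S phase, and their mRNAs end in a stem-loop instead of a poly(A) tail. Replication-independent variants come from separate genes whose mRNAs carry a poly(A) tail. At this age the lens vesicle forms and the optic cup takes shape, but most RNA of a head comes from brain, facial mesenchyme, surface ectoderm, vessels and blood.

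The divergent H2A and H2B gene pairs of the mouse clusters start transcription back to back from a shared stretch of DNA. The windows of 4 called H2B and H4 genes are shown, each from 250 bases before to 50 after a start site, because the first result below concerns these families. They come from RefSeq on GRCm38.p6, read along the strand of the gene. Capitals mark the CCAAT box (CCAAT), the octamer (ATTTGCAT) with its shorter core (TTTGCAT), and the TATA box (TATAAA) on either strand.
H2bc3, chr13:23746484-23746783, plus strand: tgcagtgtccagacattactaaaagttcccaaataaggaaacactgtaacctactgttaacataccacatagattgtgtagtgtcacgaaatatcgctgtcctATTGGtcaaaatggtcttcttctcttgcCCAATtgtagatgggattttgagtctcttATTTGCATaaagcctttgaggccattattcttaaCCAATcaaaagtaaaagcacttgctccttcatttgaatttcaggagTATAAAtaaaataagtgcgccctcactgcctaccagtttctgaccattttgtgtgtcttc
H2bc7, chr13:23574158-23574457, minus strand: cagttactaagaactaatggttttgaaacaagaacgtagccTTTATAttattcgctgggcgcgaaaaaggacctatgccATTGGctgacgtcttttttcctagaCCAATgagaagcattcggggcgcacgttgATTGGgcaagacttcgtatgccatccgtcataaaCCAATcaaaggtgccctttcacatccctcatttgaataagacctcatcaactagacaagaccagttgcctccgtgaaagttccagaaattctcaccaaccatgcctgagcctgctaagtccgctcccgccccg
H4c12, chr13:21750504-21750803, minus strand: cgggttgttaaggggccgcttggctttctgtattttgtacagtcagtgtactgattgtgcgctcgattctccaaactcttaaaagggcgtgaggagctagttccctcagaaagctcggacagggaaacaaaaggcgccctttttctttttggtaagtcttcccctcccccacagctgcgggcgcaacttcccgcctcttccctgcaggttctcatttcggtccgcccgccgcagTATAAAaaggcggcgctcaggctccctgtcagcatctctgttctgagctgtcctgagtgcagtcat
H4c18, chr13:21832148-21832447, minus strand: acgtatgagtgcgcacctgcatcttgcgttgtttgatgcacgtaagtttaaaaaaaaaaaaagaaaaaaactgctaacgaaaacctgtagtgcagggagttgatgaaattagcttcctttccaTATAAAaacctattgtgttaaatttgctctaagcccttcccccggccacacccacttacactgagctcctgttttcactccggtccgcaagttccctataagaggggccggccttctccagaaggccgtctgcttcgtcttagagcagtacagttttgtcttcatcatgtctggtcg
A CCAAT box stood in 12 of 12 H2B windows and in 2 of 9 H4 windows, against 37.4% of all 32851 promoter windows of the same length. The octamer stood in 7 of 12 H2B windows, in 0 of 9 H4 windows and in 1.74% of all windows, and of the called H2B genes only H2bc3 held it. The TATA letters stood in 6 of 12 H2B and 6 of 9 H4 windows, against 13.6% of all windows, and the match in H2bc7 lay on the opposite strand. These letters were not particular to H2B and H4. A CCAAT box stood in 14 of 14 H2A, 7 of 7 H3 and 5 of 5 H1 windows. The octamer stood in 6 of 14 H2A, 0 of 7 H3 and 0 of 5 H1 windows, and the TATA letters in 11, 2 and 4 of them.

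The 8 libraries differed among themselves more than by genotype. The first principal component held 68.2% of the variance over 13183 detected probes, and it set mutants 3 and 4 (scores 56.1 and 56.7) apart from mutants 2 and 5 (-23.0 and -17.5) and from the controls (-40.7 to -0.47). Mutants 3 and 4 also had the lowest share of detected probes, at 47.4% and 49.0% against 51.0% to 53.5% in the other 6 libraries. Against mutants 2 and 5 their median differences on the log2 scale were -3.57 over 9 erythroid genes, -2.07 over 7 macrophage genes, -1.10 over 9 neural progenitor genes and 0.83 over 13 neural crest and cranial mesenchyme genes, with 0.12 over all detected genes. The main results are therefore given without these 2 libraries too, and the part of these differences in the results was not tested.

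Markers of blood, trunk and heart varied as well. The globin Hba-a1 stood at 10.77, 11.38, 14.16 and 14.36 in controls 2 to 5 and at 14.30, 10.68, 10.78 and 14.30 in mutants 2 to 5, all log2 normalized intensities, so that blood RNA was low in 2 libraries of each genotype. Of 27 trunk Hox genes, 2 to 18 were detected in a control library and 2 to 4 in a mutant library. Hoxb5, a trunk and neck gene, stood at 4.85, 7.82, 9.92 and 7.04 in controls 2 to 5 and between 4.58 and 4.95 in the mutants. Heart RNA was plain in control 4 alone, with 9 of 12 cardiac genes detected against 2 in control 3 and 1 in each of the other 6 libraries, and Myl4, an atrial myosin light chain, at 10.99 against 5.76 to 6.45. Xist and the Y-linked Eif2s3y were both above background in controls 2 and 5 and in mutants 3, 4 and 5. Of 4 detected sex-linked genes 2 were higher in the mutants at an unadjusted p under 0.05 in limma and 0 lower. The shares over all detected genes were 5.23% and 3.84%. Differences of the 4 genes ran from -0.83 to 1.51 on the log2 scale, and the part of sex in the results was not tested. Head genes were present: Otx2, the forebrain and midbrain homeobox gene, was at 8.70 to 10.13 and Twist1, a facial mesenchyme gene, at 9.96 to 10.81 in all 8 libraries.

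**Figure D1:**
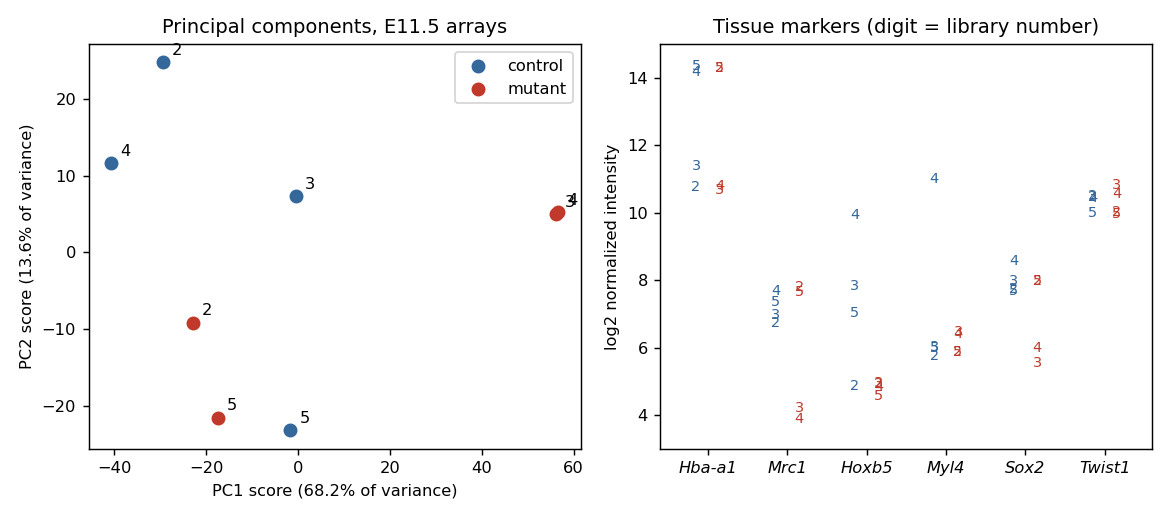
Left, the 8 arrays on the first and second principal components, which hold 68.2% and 13.6% of the variance, with the library number beside each point. Right, log2 normalized intensity of blood (Hba-a1), macrophage (Mrc1), trunk (Hoxb5), heart (Myl4), neural progenitor (Sox2) and mesenchyme (Twist1) genes, each digit 1 library. Mutants 3 and 4 lie apart on the first component, and control 4 alone holds Myl4 at 10.99.

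In the comparison of the genotypes, 10 of 13183 detected probes (0.0759%) passed a false discovery rate of 10% in limma, 8 higher in the mutants (0.0607%) and 2 lower (0.0152%). At an unadjusted p under 0.05 there were 650 higher (4.93%) and 612 lower (4.64%). The genotypes did not overlap for 533 probes (4.04%), 319 with all mutants above all controls (2.42%) and 214 with all mutants below (1.62%). The higher probes named 4 H2B genes, 2 H4 genes, the small nuclear RNA gene Rnu6 and Denr. The lower ones were Erdr1 and a probe without a gene name, ILMN_3159435. The calls higher in the mutants were the fragile ones: leaving out single libraries gave between 0 and 7 genes, and leaving out mutants 3 and 4 together left 1, Denr. Both lower calls held in each of the 8 fits without 1 library.

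**Figure D2:**
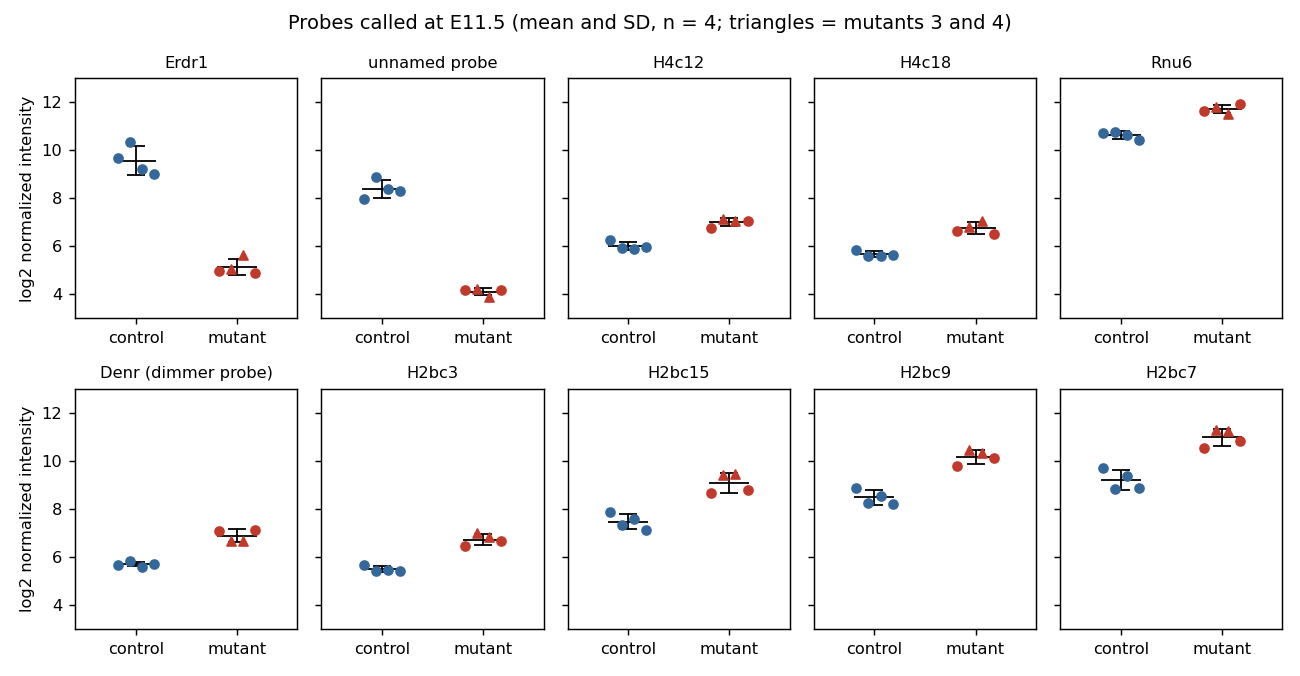
Log2 normalized intensity of the 10 called probes in each library, with the mean and SD of 4 libraries per genotype and triangles for mutants 3 and 4. No panel has overlapping genotypes, and the unnamed probe is below background in all 4 mutants and Erdr1 in 3.

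The 2 largest differences were losses. Erdr1, erythroid differentiation regulator 1, was at 9.69, 10.36, 9.24 and 9.01 in controls 2 to 5 and at 4.95, 5.03, 5.62 and 4.89 in mutants 2 to 5. All mutants lay far below all controls, and 1 of 4 mutant libraries detected the probe at all. The fitted difference of Erdr1 was -4.45 on the log2 scale (standard error 0.28), with an adjusted p of 9.7e-05. Mutants 2 and 5 were both below background, and against these libraries alone Erdr1 was at least 21.8-fold lower (adjusted p 0.00091). The unnamed probe was at 7.97, 8.87, 8.39 and 8.32 in controls 2 to 5 and at 4.16, 4.21, 3.88 and 4.17 in mutants 2 to 5. It was above background in every control and in no mutant, so the mutants were at least 9.10-fold lower (fitted log2 difference -4.28, standard error 0.19, adjusted p 5.0e-06). Against mutants 2 and 5 alone that probe was at least 9.57-fold lower (adjusted p 0.00020).

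The main gain was in replication-dependent H2B genes. Of 12 H2B genes on the array 10 were detected, 4 rose at the 10% threshold, 8 were higher at an unadjusted p under 0.05 and none was lower, with 5.23% of all 9983 detected genes higher at that p and 3.84% lower when 1 probe stands for a gene. Their median log2 difference was 1.00 against 0.06 over all detected genes. Mean H2B levels per library ran from 7.23 to 7.57 in the controls and from 8.14 to 8.64 in the mutants without overlap. Members of a histone family are close to identical in coding sequence, and a probe may take up RNA of several of them, so the genes of a family are not independent counts. Labelling was primed on poly(A) tails, which most replication-dependent histone mRNAs lack. The values of these families therefore read only the RNA that was labelled, and their total mRNA was not measured.

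H2bc7 had the largest rise. It was at 9.71, 8.86, 9.36 and 8.86 in controls 2 to 5 and at 10.55, 11.31, 11.24 and 10.84 in mutants 2 to 5. Mutants 3 and 4 were the highest, but mutants 2 and 5 also lay above every control. H2bc7 rose 3.46-fold (log2 1.79, standard error 0.23, adjusted p 0.056). H2bc9 was at 8.89, 8.26, 8.56 and 8.22 in the controls and at 9.78, 10.48, 10.33 and 10.12 in the mutants, again without overlap. It rose 3.24-fold (log2 1.69, standard error 0.20, adjusted p 0.035). H2bc15, at 7.13 to 7.86 in controls and 8.68 to 9.47 in mutants, rose 3.07-fold (adjusted p 0.062). H2bc3 was dimmer, at 5.41 to 5.66 in controls and 6.44 to 6.99 in mutants, and rose 2.35-fold (adjusted p 0.041). Without mutants 3 and 4 these 4 genes differed by 1.50, 1.47, 1.27 and 1.06 on the log2 scale in the order named, with adjusted p of 0.52, 0.31, 0.52 and 0.31. Of the 8 fits without 1 library, 6 lost the call of H2bc7 and of H2bc9, and 7 that of H2bc15 and of H2bc3.

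The other H2B genes formed a gradient. H2bc11 was at 8.48 to 9.19 in controls and 9.81 to 10.80 in mutants without overlap, a difference of 1.55 that just missed the threshold (adjusted p 0.10, and 1.18 without mutants 3 and 4). H2bc14, H2bc12 and H2bc18 differed by 0.76, 0.66 and 0.52, each without overlap, while H2bc6 and H2bc4 differed by 0.34 and 0.06. The smallest, H2bc4, was at 6.12 to 6.61 in controls and 6.45 to 6.60 in mutants.

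Replication-dependent H4 genes moved the same way by less. All 10 H4 genes on the array were detected, 2 rose at the 10% threshold and 8 were higher at an unadjusted p under 0.05, with a median of 0.64. Of all detected genes 5.23% were higher and 3.84% lower at that p. H4c18 was at 5.84, 5.59, 5.59 and 5.65 in controls 2 to 5 and at 6.63, 6.82, 7.07 and 6.51 in mutants 2 to 5. It rose 2.13-fold (log2 1.09, standard error 0.15, adjusted p 0.067). H4c12 was at 6.25, 5.95, 5.89 and 5.98 in the controls and at 6.75, 7.13, 7.07 and 7.05 in the mutants. It rose 1.97-fold (log2 0.98, standard error 0.15, adjusted p 0.094). Without mutants 3 and 4 the differences of H4c18 and H4c12 were 0.90 and 0.88 with adjusted p of 0.60 and 0.93, and of the 8 fits without 1 library 8 and 7 lost the call. Neither gene overlapped between genotypes, and H4c6, H4c9 and H4c4 followed at 0.77, 0.68 and 0.67. Scaling the arrays by their medians lowered the H4 median to 0.42, left H2B at 0.80 and ended both H4 calls.

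H1, H2A and H3 genes did not pass the threshold. Of 3 detected H1 genes, H1f5 differed by 0.83 (adjusted p 0.66), H1f1 by 0.60 and H1f2 by -0.10, and the first 2 were higher at an unadjusted p under 0.05 without overlap, with and without mutants 3 and 4. The H1 median was 0.60, which is the value of H1f1 itself. H1f1 was above background in all mutants and in no control, at least 1.31-fold higher in the mutants. It passed the detection filter through the mutants alone, so the H1 count and median rest partly on that filter. The 12 detected H2A genes had a median of 0.38, and 1 of them, H2ac4, was higher at an unadjusted p under 0.05. The 8 detected H3 genes had a median of 0.28, with H3c1 (0.38) alone at that p. Among all detected genes 5.23% were higher and 3.84% lower at that p. Without mutants 3 and 4 the H2A median was 0.15 and the H3 median 0.16, against 0.84 in H2B, 0.54 in H4 and 0.43 in H1.

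H2A genes varied widely within each genotype, unlike H2B genes. H2ac7 was at 13.22, 12.65, 12.54 and 10.83 in controls 2 to 5 and at 12.87, 12.61, 12.59 and 12.07 in mutants 2 to 5. The library numbered 5 was the lowest of each genotype and the genotypes overlapped. H2ac7 and H2bc7 share 273 bases of their promoter windows on opposite strands, yet H2ac7 differed by 0.22 and H2bc7 by 1.79. In all 4 such pairs with both genes detected the H2B gene had the larger difference: H2bc15 with 1.62 beside H2ac15 with 0.31, H2bc11 with 1.55 beside H2ac11 with 0.40, and H2bc12 with 0.66 beside H2ac12 with 0.37. The difference between partners was not tested.

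H3c14, the gene mutated in this line, gave opposite readings on its 2 probes. The brighter probe was at 10.77, 10.32, 10.55 and 10.12 in controls 2 to 5 and at 10.41, 10.06, 10.28 and 10.21 in mutants 2 to 5, overlapping throughout (log2 difference -0.20, standard error 0.17, adjusted p 0.70). The dimmer probe was at 5.49, 5.50, 5.32 and 4.97 in the controls and at 6.07, 7.25, 7.02 and 6.43 in the mutants. It did not overlap between genotypes (1.37, standard error 0.25), but its adjusted p was 0.43. The array does not read the mutation itself, so neither probe checks the genotype labels.

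Apart from H4f16, genes listed as variants, cell cycle genes and histone mRNA factors did not move with H2B and H4. Of 7 detected genes listed as replication-independent, 6 were lower in the mutants, none of them at an unadjusted p under 0.05. H4f16 alone was higher at that p (0.83, above background in no control and at least 1.64-fold higher). It is an H4 gene by name that was counted in this list, and whether it is replication-independent was not tested. H4f16 passed the detection filter through the mutants alone. The H3.3 gene H3f3a was at 12.28 to 12.84 in controls and at 12.63, 11.13, 11.00 and 12.67 in mutants 2 to 5, low only in mutants 3 and 4. Over 23 DNA replication genes the median was -0.08, with Pole higher (0.42) and Mcm3 lower (-0.63) at an unadjusted p under 0.05. Over 12 mitosis genes it was 0.05, with Bub1b higher (0.46), and over 11 D cyclins and cell cycle exit genes -0.05 with none at that p in either direction. At that p 5.23% of all detected genes were higher and 3.84% lower. Among 19 factors of histone transcription, mRNA processing and chaperoning the median was 0.05. There Cpsf2, a subunit of the complex that cuts histone pre-mRNA, differed by 0.37 and Rbbp7, a histone-binding chaperone, by -1.90. Rbbp7 was at 11.08, 9.48, 10.79 and 8.66 in controls 2 to 5 and at 9.80, 6.48, 6.43 and 9.71 in mutants 2 to 5, and its difference was -0.25 without mutants 3 and 4.

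**Figure D3:**
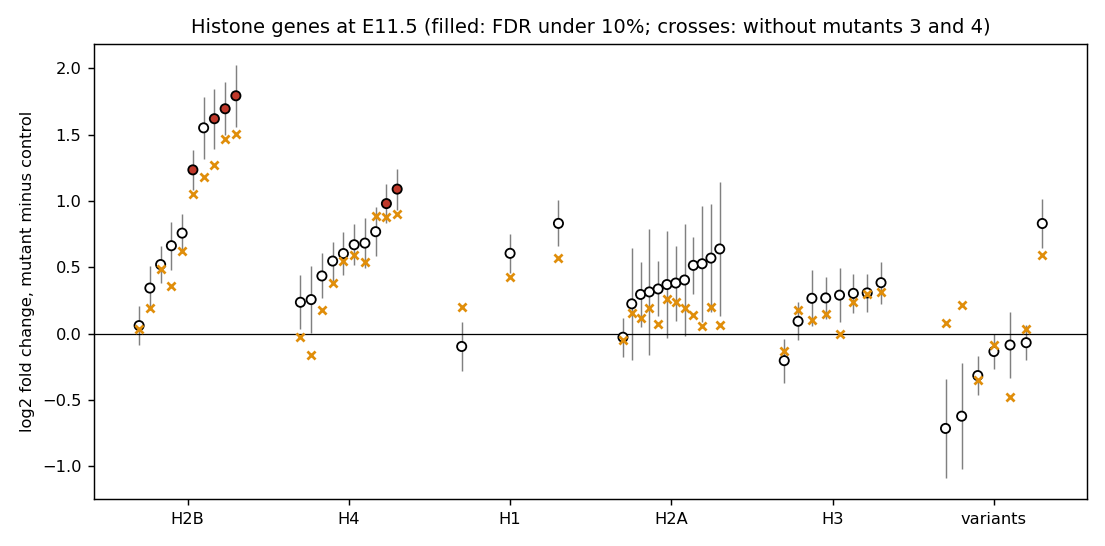
Log2 fold change, mutant minus control, of each detected histone gene at E11.5 (circles, with standard errors), by family. Filled circles passed a false discovery rate of 10%, 4 in H2B and 2 in H4, and crosses give the same gene without mutants 3 and 4.

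Rnu6, a U6 spliceosomal RNA gene whose product has no poly(A) tail, rose beside the histones. It was at 10.74, 10.78, 10.64 and 10.42 in controls 2 to 5 and at 11.66, 11.82, 11.53 and 11.93 in mutants 2 to 5, with no overlap and with mutants 3 and 4 among the others. Rnu6 rose 2.13-fold (log2 1.09, standard error 0.15, adjusted p 0.056), and the difference was 1.15 without mutants 3 and 4 (adjusted p 0.31). All 8 fits without 1 library lost the call (adjusted p 0.12 to 0.27), as did scaling the arrays by their medians (0.96, adjusted p 0.21). Snora65, the other such small RNA on the array, was at 9.93 to 10.17 in controls and 10.22 to 10.38 in mutants (0.20, adjusted p 0.66). With labelling primed on poly(A) tails, the total amount of these 2 RNAs was not measured either.

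Denr, a translation reinitiation factor, was called on its dimmer probe only. That probe was at 5.68, 5.84, 5.59 and 5.70 in controls 2 to 5 and at 7.10, 6.66, 6.65 and 7.13 in mutants 2 to 5 without overlap, and rose 2.27-fold (log2 1.18, standard error 0.16, adjusted p 0.056). It was the 1 higher call that held without mutants 3 and 4 (1.41, adjusted p 0.035), but all 8 fits without 1 library lost it (adjusted p 0.12 to 0.27), and with arrays scaled by their medians its adjusted p was 0.575. The brighter Denr probe went the other way, at 7.61 to 7.99 in controls and 7.40 to 7.84 in mutants (-0.29, adjusted p 0.66).

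A day earlier the same genes behaved differently. At E10.5, 0 of 13173 detected probes passed the 10% threshold in limma in either direction (0.0%), and 62 were higher (0.471%) and 86 lower (0.653%) at an unadjusted p under 0.05. H2bc7 at E10.5 was at 10.13, 9.17, 10.23 and 10.44 in controls 2 to 5 and at 9.49, 9.45, 9.21 and 9.54 in mutants 2 to 5, a difference of -0.57 with overlap. Over detected H2B genes the E10.5 median was -0.32, where the later stage gave 1.00, and over H4 genes it was -0.37 against 0.64. E10.5 libraries were unlike those of E11.5 in tissue content: 10 or 11 of 12 cardiac genes were detected in each, and 13 to 17 trunk Hox genes.

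The genotype difference itself changed between the stages for 8 of 13874 probes (0.0577%) at a false discovery rate of 10% in limma. They were H2bc7 (E11.5 difference minus E10.5 difference 2.36, standard error 0.36), H2bc9 (2.26), the dimmer H3c14 probe (2.02), H2bc3 (1.62), Rnu6 (1.56), H4c12 (1.54), H4c18 (1.52) and the unnamed probe (-2.61). Adjusted p-values ran from 0.057 to 0.084. None was called without E11.5 mutants 3 and 4 or after a different background correction, where 0 probes passed. Leaving out single libraries gave 0 to 12 genes.

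Denr, Erdr1 and the unnamed probe kept their direction at E10.5. The dimmer Denr probe was at 5.88, 6.21, 6.11 and 5.38 in E10.5 controls and at 7.51, 7.40, 7.86 and 7.04 in E10.5 mutants, again without overlap (1.56, unadjusted p 2.8e-05, adjusted p 0.73). Erdr1 was at 9.36, 8.33, 9.34 and 10.08 in E10.5 controls and at 7.43, 5.44, 7.41 and 8.21 in E10.5 mutants, all below their controls (-2.16, unadjusted p 0.0022, adjusted p 1.0). The unnamed probe differed by -1.67 without overlap. For that probe all E10.5 mutants, at 5.55 to 7.16, lay above all E11.5 mutants, and for Erdr1 3 of 4 did, while the controls of both stages overlapped.

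**Figure D4:**
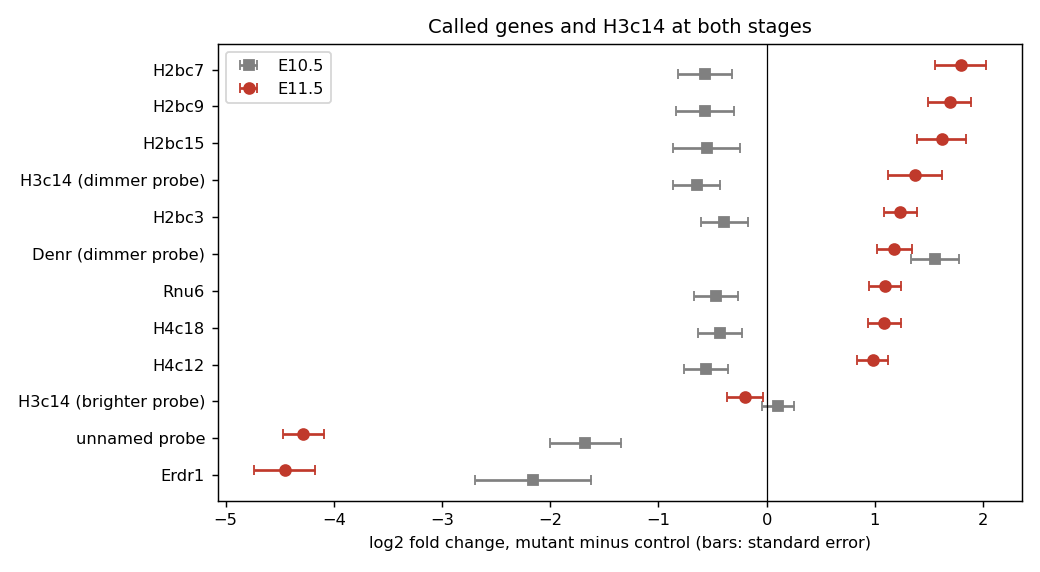
Log2 fold change, mutant minus control, with its standard error at E10.5 (squares) and E11.5 (circles) for the 10 called probes and the brighter and dimmer H3c14 probes. The H2B and H4 genes and Rnu6 lie below 0 at the earlier stage and above it at the later one, and Denr, Erdr1 and the unnamed probe keep their side.

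Beyond the calls, the genes with the smallest unadjusted p were again led by histones. Among the 10 higher ones were H2bc11, the dimmer H3c14 probe, H2bc14, H1f5, H2bu1-ps, H4f16 and H4c4. The others were Alyref2, an mRNA export adaptor (0.67, standard error 0.13), the transcription factor gene Zbtb14 (0.66), and a dimmer probe of the growth factor receptor gene Fgfr2 (0.66), whose brighter probe was at -0.53. Alyref2 was at 5.39 to 5.65 in controls and 6.09 to 6.27 in mutants.

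The 10 lower ones led with Ube2e2, a ubiquitin-conjugating enzyme gene. It was at 10.39, 10.13, 10.31 and 10.28 in controls 2 to 5 and at 9.71, 9.42, 9.29 and 9.61 in mutants 2 to 5, without overlap (-0.77, adjusted p 0.45). Hsd11b2, which inactivates glucocorticoids, was at 7.27 to 8.41 in controls and 6.25 to 7.02 in mutants (-1.20, adjusted p 0.66). Shroom3, a regulator of apical constriction in epithelia such as the lens placode, was at 6.91 to 7.27 in controls and 6.32 to 6.57 in mutants (-0.59, adjusted p 0.66). It differed by -0.66 without mutants 3 and 4 and by -0.18 at E10.5. The phosphatase gene Dusp2 differed by -0.65, Cmtm6 by -0.67, Sh2b2 by -0.56 and dimmer probes of Hdac5, Smtn, Nab1 and Fbxl12 by -0.68, -0.68, -0.71 and -0.77. The adjusted p was 0.45 to 0.66 for these 10 genes.

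Crystallin and lens fiber genes were mostly at the floor in these heads, as were several lens and optic regulators. Of the genes on the array, 4 of 12 lens fiber genes, 9 of 14 lens transcription factors and 10 of 18 eye field and optic cup genes were detected. Of 16 crystallin genes 4 were detected, and the lens regulators Pax6, Foxe3 and Pitx3, the optic genes Rax and Six6, and Cryaa and Crygd were above background in at most 1 of the 8 libraries. A genotype difference of these genes was not detectable at this signal. How well their probes read the genes was not tested, so a signal at the floor does not show that the RNA was scarce. Cryba1, a beta-crystallin gene, was at 5.98, 6.72, 6.35 and 8.05 in controls 2 to 5 and at 5.97, 5.92, 5.78 and 6.24 in mutants 2 to 5, overlapping with control 5 the highest (-0.80, adjusted p 0.66, and -0.67 without mutants 3 and 4). Cryab was at 5.65 to 6.12 in controls and 5.29 to 5.72 in mutants (-0.37). Of 9 detected lens transcription factors Tfap2a and Meis2 were lower at an unadjusted p under 0.05, by -0.51 and -0.49, and no member was higher. At that p 3.84% of all detected genes were lower and 5.23% higher. Tfap2a, needed for surface ectoderm and lens, was at 8.23 to 8.95 in controls and 7.93 to 8.22 in mutants without overlap. Its dimmer probe differed by -0.14 and overlapped. None of 10 detected eye field and optic cup genes reached that p in either direction.

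Retinal ganglion cell genes gave 8 detected members, 1 of them lower at an unadjusted p under 0.05, the homeobox gene Dlx2 (-0.49). None was higher, and 3.84% of all detected genes were lower and 5.23% higher at that p. Pou4f1, which marks ganglion cells and sensory ganglia, was at 6.87 to 8.16 in controls and 7.12 to 7.73 in mutants (-0.06, adjusted p 0.95). Pou4f2 and Mki67 had no named probe.

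Some Notch and neural progenitor genes differed at an unadjusted p under 0.05, none at the 10% threshold. Of 16 detected Notch pathway and proneural genes 4 were lower at an unadjusted p under 0.05 and none higher, with a median of -0.26, and of 9 neural progenitor genes 2 were lower and 1 higher, with a median of -0.52. The shares over all detected genes were 3.84% lower and 5.23% higher. Hes5, a Notch target that keeps progenitors undifferentiated, was at 7.87, 9.19, 9.38 and 9.28 in controls 2 to 5 and at 8.08, 6.86, 7.08 and 8.54 in mutants 2 to 5. The genotypes overlapped through control 2, and mutants 3 and 4 were lowest (-1.29, adjusted p 0.66, and -0.62 without them). Hes1 was at 7.91 to 8.87 in controls and at 8.03, 7.31, 7.07 and 8.01 in mutants 2 to 5 (-0.87, and -0.46 without mutants 3 and 4). Sox2 was at 7.66 to 8.57 in controls and at 7.97, 5.53, 5.98 and 7.98 in mutants 2 to 5, so that its difference of -1.12 became -0.01 without mutants 3 and 4. Without those libraries the Notch median was -0.08 and the progenitor median 0.03, and no member of either list reached an unadjusted p under 0.05, which 2.69% of all detected genes then passed as higher and 2.49% as lower.

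The genes that the study displayed for this stage were chosen on these samples, and their counts are no independent evidence. Of these 20 genes, all detected, 8 were higher and 6 lower at an unadjusted p under 0.05 on their brightest probes, and 1, Erdr1, fell at the 10% threshold. The shares over all detected genes at that p were 5.23% higher and 3.84% lower. Without mutants 3 and 4 none was higher and 2 were lower at that p, where 2.69% of all detected genes were higher and 2.49% lower. Snhg11, a small nucleolar RNA host gene, was at 6.64, 7.43, 6.47 and 7.41 in controls 2 to 5 and at 7.27, 8.40, 8.17 and 7.91 in mutants 2 to 5, overlapping through mutant 2 (0.95, adjusted p 0.66). Thy1, a neuronal surface glycoprotein gene, was at 5.29 to 6.36 in controls and at 5.81, 7.11, 7.15 and 5.98 in mutants 2 to 5, high only in mutants 3 and 4 (0.81, and 0.20 without them). Foxc1, a mesenchymal forkhead gene required for the front of the eye, was at 9.71, 8.68, 9.06 and 7.41 in controls 2 to 5 and at 8.10, 7.27, 7.34 and 7.92 in mutants 2 to 5 (-1.05, adjusted p 0.66, and -0.70 without mutants 3 and 4). Chac1, a stress-induced glutathione-degrading enzyme gene, was at 8.86 in control 3 and at 5.63 to 6.07 in the other 7 libraries. The brightest Sparc and Ruvbl1 probes, at -0.06 and -0.24, moved less than a dimmer probe of each, at -1.33 and -1.31.

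A few patterning genes of the hindbrain and trunk were lower at an unadjusted p under 0.05, where 3.84% of all detected genes were lower and 5.23% higher. Of 13 detected midbrain and hindbrain genes 3 were lower at that p and none higher, with a median of -0.38, and of 5 detected trunk Hox genes 2 were lower with a median of -0.04. The 3 were Hoxa2, which patterns the hindbrain and second arch, Hoxb2, and Phox2a, a gene of cranial motor and noradrenergic neurons. Hoxa2 was at 7.62, 8.67, 9.45 and 8.20 in controls 2 to 5 and at 7.67, 7.38, 7.20 and 7.18 in mutants 2 to 5, lowest in control 2 among controls and overlapping there (-1.13, adjusted p 0.66, and -1.06 without mutants 3 and 4). Hoxb5 and Hoxa5, above background in controls 3, 4 and 5 and in no mutant, were at least 4.61-fold and 2.76-fold lower in the mutants (adjusted p 0.66 each). Both passed the detection filter through the controls alone, so the trunk Hox count and median rest partly on that filter. Control 2, the control library with the fewest trunk Hox genes detected (2), lay among the mutants for Hoxa2, Hoxa5 and Hoxb5. The amount of tissue behind the head in a library and the genotype cannot be told apart for these genes in the other 3 controls. En1 and En2, midbrain-hindbrain boundary genes, differed by -0.10 and -0.52, En2 through mutants 3 and 4 (0.23 without them).

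In mesenchyme, matrix and signalling lists few genes differed, and the medians moved with mutants 3 and 4. Over all detected genes the median was 0.06, and 0.0088 without these 2 libraries. At an unadjusted p under 0.05, 5.23% of all detected genes were higher and 3.84% lower, and without these 2 libraries 2.69% and 2.49%. Neural crest and cranial mesenchyme genes had a median of 0.11 (1 of 13 lower at an unadjusted p under 0.05), which was -0.35 without mutants 3 and 4, where 2 were lower. Extracellular matrix genes had a median of 0.11, with the laminin gene Lamc1 (-0.73) alone at that p, and of -0.18 without mutants 3 and 4, where 2 of 22 were lower. BMP signalling genes had a median of 0.01 over 18 genes, with Id3, a BMP target, lower (-0.44) and Bmpr1a at -0.14. None of 17 integrin-linked kinase genes and none of 12 FGF genes reached an unadjusted p under 0.05, with medians of 0.0048 and -0.07. Without mutants 3 and 4 the medians were -0.06 for BMP, -0.08 for integrin-linked kinase and -0.17 for FGF genes, and 2, 2 and 1 genes were lower and 1, 0 and 1 higher at that p. In the surface ectoderm list Krt14, the basal keratin, was higher at that p (0.68), at 7.96 to 8.76 in controls and 8.62 to 9.34 in mutants.

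Cell death and stress lists held few differences. Of 20 apoptosis and p53 target genes 1 was lower at an unadjusted p under 0.05, the initiator caspase gene Casp9 (-0.72, adjusted p 0.66), and none was higher, with a median of -0.06, and -0.02 without mutants 3 and 4. Casp9 was at 5.16 to 5.75 in controls and 4.48 to 5.26 in mutants, and above background in 1 of 4 mutants. It passed the detection filter through the controls alone. Among 20 chaperone genes Hsph1 was higher (0.54) and Calr and Pdia3 lower (-1.03 and -0.48). Glycolysis genes gave 3 of 15 lower, Ldha (-0.43), Pdk1 (-0.54) and Pfkp (-0.86), and 0 without mutants 3 and 4. Their median was -0.13, and -0.17 without these 2 libraries, so it did not shrink with the count. Mean glycolysis levels per library ran from 9.80 to 10.14 in the controls and from 9.70 to 9.77 in the mutants. Of 50 ribosomal protein genes 1 was higher and 3 lower, with a median of -0.01. With all 8 libraries, 5.23% of all detected genes were higher and 3.84% lower at an unadjusted p under 0.05.

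Blood and muscle lists varied between libraries of 1 genotype. The erythroid median was -0.15 with all libraries and 1.38 without mutants 3 and 4, since globin was low in controls 2 and 3 as well. Macrophage genes had a median of -0.74, and the mannose receptor gene Mrc1 was at 6.73 to 7.68 in controls and at 7.80, 4.21, 3.88 and 7.65 in mutants 2 to 5. Of 14 endothelial genes 1 was lower at an unadjusted p under 0.05 and none higher, with a median of -0.13, and of -0.27 without mutants 3 and 4, where 2 were lower. The share of all detected genes lower at that p was 3.84%, and 2.49% without these 2 libraries. Skeletal muscle genes had a median of -0.15, with Tnnc1 at 10.07 in control 4 and at 5.66 to 7.15 in the other 7 libraries. Abundant housekeeping RNAs followed mutants 3 and 4 too: the splicing regulator gene Hnrnpa2b1, named after its values were seen, was at 12.99, 12.04, 12.85 and 11.00 in controls 2 to 5 and at 12.06, 8.95, 8.85 and 11.89 in mutants 2 to 5 on its brightest probe, and at 6.80 to 7.52 in all 8 libraries on a dimmer one.

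**Figure D5:**
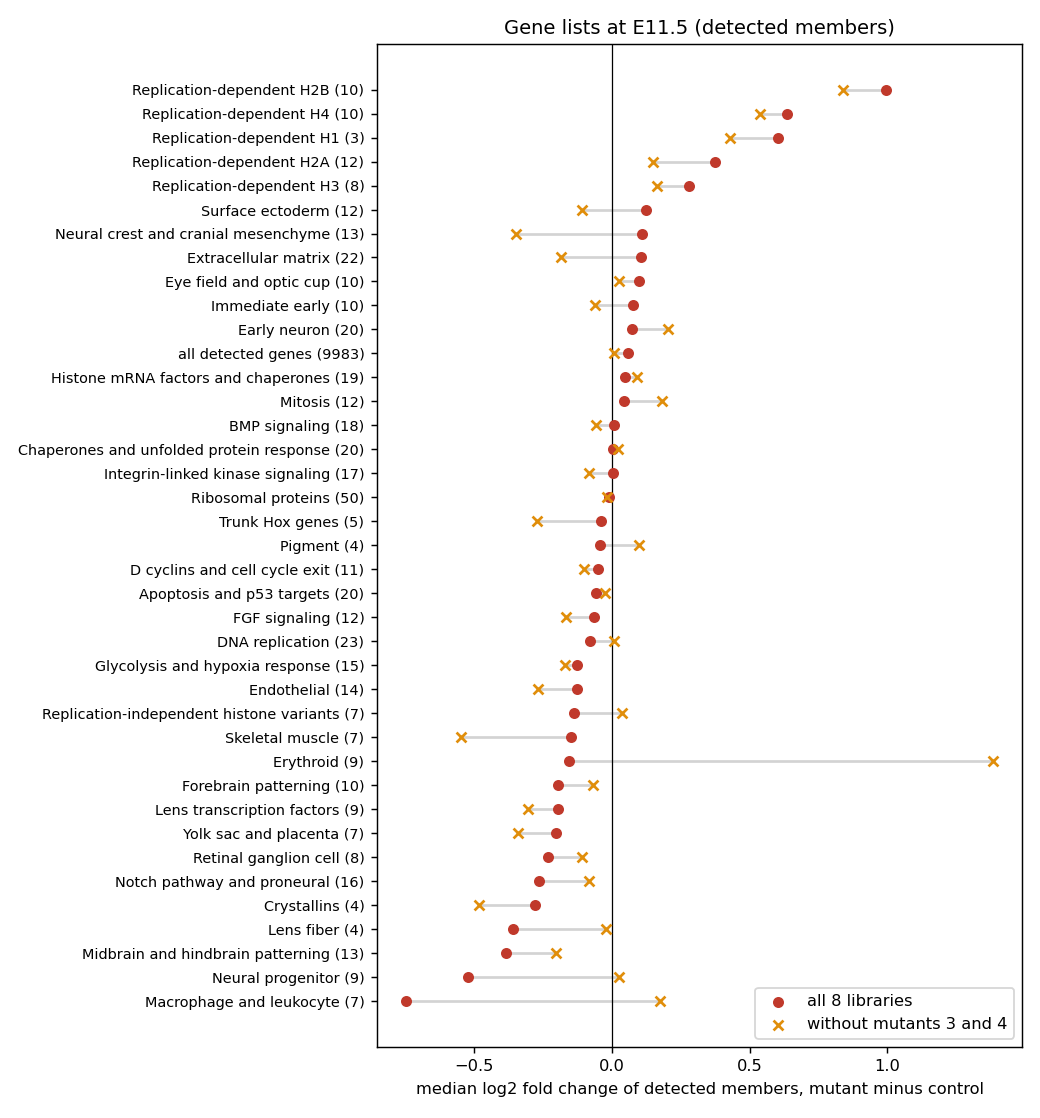
Median log2 fold change, mutant minus control, over the detected members of each gene list (their number in parentheses) with all 8 libraries (circles) and without mutants 3 and 4 (crosses). The H2B and H4 lists lie to the right of the other lists shown with all libraries, and the erythroid list moves from -0.15 to 1.38 when the 2 libraries are left out.

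Genes around H3c14 were examined because a linked stretch of chromosome 3 travels with the mutation. Within 5 Mb on either side, 77 of 151 array genes were detected, with a median difference of 0.10. Of these 7 were higher and 1 lower at an unadjusted p under 0.05, where 5.23% of all detected genes were higher and 3.84% lower, and none passed the 10% threshold. Without mutants 3 and 4, 3 were higher and 2 lower, where 2.69% of all detected genes were higher and 2.49% lower. Txnip, an inhibitor of thioredoxin, was at 7.53, 8.10, 7.71 and 8.26 in controls 2 to 5 and at 8.29, 8.67, 8.63 and 8.42 in mutants 2 to 5, the mutants just above the controls (0.61, adjusted p 0.66, and 0.46 without mutants 3 and 4). Tmod4, a tropomodulin gene, was at 6.65 to 7.74 in controls and 7.63 to 8.38 in mutants (0.77). The others higher were Gpr89, Zfp687, Anxa9, Riiad1 and 1 histone gene of the cluster, H2bc18, all by less than 0.53. Sf3b4, a splicing factor gene, was lower (-0.96), at 5.65 to 7.33 in controls and at 6.30, 5.25, 5.23 and 6.02 in mutants 2 to 5.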

How the data were processed

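RNA of whole embryos, heads and eyes was hybridised to Illumina MouseRef-8 bead arrays after labelling primed on poly(A) tails, and only RNA with an integrity number over 7 was used. The table the authors deposited holds background-subtracted array intensity per probe, from -21 to 28964, each with a detection p-value of the authors' software. A second deposited table holds the authors' quantile-normalized intensity, which lay within 3% or 1 unit of the values here for 92.7% of values sorted within a genotype. Here an offset of 22 was added, 36 arrays were quantile normalized together (4 that the authors excluded were left out), log2 was taken, and the 8 arrays were fitted with limma 3.58.1 in R 4.3.3 with Benjamini-Hochberg adjustment over all 25697 probes. Fold changes on this scale understate those of dim probes. Detection, applied after the fit, required a p of the software under 0.05 in 3 or more of the 4 libraries of 1 genotype, and a call needed a false discovery rate under 10%. A bound ("at least") sets the bright group's mean against the higher of each dim array's lowest detected signal and the probe's own value. The brightest detected probe stands for a gene. Named are all calls, the 10 next probes in each direction, members of gene lists with small p, fixed lens, retina and marker genes, the genes the study displayed, and genes near H3c14. Members and lists were chosen with earlier results of these data known. The number of arrays limits the precision, p-values measure the spread between samples labelled as biological replicates, and probe names (23978 probes with 1 gene, 1719 with none) came from the platform annotation. On simulated data of 8 arrays, 200 changed probes of 25697 were recovered at 74.0%, 96.5% and 97.0% for log2 changes of 1, 1.5 and 2. The simulated noise was independent between probes, and only detected probes were changed. Differences shared by many probes, such as those of mutants 3 and 4, were not simulated, so recovery on the real arrays was not tested. Alternatives covered scaling, background, offset, filter, model, replicate numbers and left-out libraries.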

Additional observations from a re-analysis of the deposited data

Results flagged for a closer look

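Among 106 groups of 4 examined, 3 values lay far from the rest of their group, where chance gives about 1 in 20. The unnamed probe was lowest in mutant 4 (3.88), below background in all 4 mutants. Hes5 was lowest among controls in control 2 (7.87), and Chac1 was highest among controls in control 3 (8.86).

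The genotype difference changed between E10.5 and E11.5 for 8 probes by limma's interaction term. The E11.5 difference minus the E10.5 difference was 2.36 for H2bc7, 2.26 for H2bc9, 1.62 for H2bc3, 1.54 for H4c12, 1.52 for H4c18, 1.56 for Rnu6, 2.02 for the dimmer H3c14 probe and -2.61 for the unnamed probe.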

How the results depend on the processing

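The 2 lower calls, Erdr1 and the unnamed probe, held under every alternative run. The 8 higher genes became 5 with arrays scaled by their medians, 1 with an offset of 100, 2 in a model of all 10 groups, 0 with a replicate block by column number or by title number on the authors' values, and 1 without mutants 3 and 4, which was added after seeing the data. The deviations of same-numbered mutants and controls from their group means had correlations of 0.34, 0.61, -0.57 and -0.12. Differences in tissue content between libraries also enter these values, so they do not decide whether the numbers pair the samples. Without single libraries the higher count ran from 0 to 7. At an unadjusted p under 0.05, 612 genes were higher and 557 lower on any probe. Median scaling gave 169 and 1024, the model of all groups 928 higher, and leaving out mutants 3 and 4 gave 352 and 296, while leave-one-out fits gave 235 to 1202 higher and 176 to 1283 lower. Median scaling moved the median of all genes from 0.06 to -0.08. The H2B median was 0.59 with an offset of 100 and 0.93 to 1.08 without single libraries, and the H4 median 0.38, and 0.42 with median scaling, and 0.51 to 0.69. The 8 stage-dependent genes became 0 with normexp background correction or without E11.5 mutants 3 and 4, 1 in the model of all groups and with the replicate block, and 0 to 12 without single libraries. The share of probes without overlap was 16.9% without mutants 3 and 4, where 2 libraries face 4. Direction turned for Otx2 (0.46 without mutants 3 and 4, -0.39 to 0.085 without single libraries), Bmpr1a (0.19 without mutants 3 and 4), Pou4f1 (-0.30 to 0.13 without single libraries) and Sparc (-0.17 to 0.031), none of them called. The causes were not tested. Signal over background limits the crystallin and lens fiber genes and several lens and optic regulators, and cross-hybridisation within histone families was not tested.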
